A study of Mus musculus with 3 samples.

Results

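The genes of the proteasome were examined in RNA sequencing counts of sorted group 2 innate lymphoid cells (ILC2s), lymphocytes that lack antigen receptors and secrete type 2 cytokines such as IL-5 and IL-13. Members were all protein-coding genes with a row in the table whose mouse symbol begins with Psma, Psmb, Psmc, Psmd, Psme or Psmg followed by a digit. This gave 49 genes of 27179 gene IDs. Of these, 47 encode proteasome subunits, activators or assembly chaperones. The other two, Psmc3ip and Psme3ip1, match by symbol but are named for proteins that bind a subunit. Psme2b also fits the symbol rule and had no row in the table.

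The series has 1 group of 3 libraries from wild type C57BL/6 mice, in a study titled for the circadian clock of gut group 3 innate lymphoid cells, with no treatment named and no control group. The sort took cells with CD45, CD90.2, CD127 and KLRG1 on their surface, and left out those with any of CD3, CD5, CD8, NK1.1, CD11b, CD11c and B220. The gate holds no marker of plasma cells, and KLRG1 selects a portion of ILC2s. Tissue, hour of collection, sex and age were not stated in the labels read here. Libraries are called mouse 1, 2 and 3 after the number in each title. Nothing in the labels ties a library to a named animal, so the spread between libraries may be partly technical.

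The proteasome is the protease that breaks down ubiquitin-tagged proteins in the cytosol and nucleus. Its barrel-shaped core, the 20S particle, has outer rings of alpha subunits (Psma genes) and inner rings of beta subunits (Psmb genes), of which Psmb5, Psmb6 and Psmb7 carry the cutting sites. The 19S regulatory particle (Psmc ATPases and Psmd subunits) caps the barrel, removes ubiquitin and unfolds substrates, while the Psme activators open the barrel without ubiquitin. In lymphocytes and in cells exposed to interferon, Psmb8, Psmb9 and Psmb10 can take the places of Psmb5, Psmb6 and Psmb7. The resulting immunoproteasome cuts peptides suited to class I histocompatibility molecules.

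The libraries held 17819551 to 26374248 counts. All 8 ILC2 markers were detected, meaning at least 1 CPM (counts scaled to 1000000 per library) in each library. Of other cell types, 7 of 9 B and plasma cell markers, 3 of 7 T cell, 2 of 9 myeloid, 2 of 7 natural killer, 1 of 5 gut epithelial and 0 of 3 erythroid markers were detected. The B cell genes Ms4a1 and Pax5 were at 0 counts. The summed level of the B and plasma cell markers was 12450 CPM in mouse 1, 34248 CPM in mouse 2 and 62639 CPM in mouse 3. Immunoglobulin genes took 1.04%, 3.89% and 7.81% of the counts of mice 1, 2 and 3, and their part in the differences between libraries below was not tested.

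Nearly the whole proteasome was transcribed in these cells. Detection was reached by 46 of 49 members, against 31.1% of all gene IDs. The members together took 1.58%, 1.59% and 1.48% of the counts in mice 1, 2 and 3, and their summed level was 15513 ± 533 CPM (SD, n = 3). The median detected member stood at 208 CPM, against 23.5 CPM for all detected genes, and 45 of 46 detected members were above that second value. Divided by summed exon length, the medians were 90.3 CPM per kb for detected members and 5.44 CPM per kb for all detected genes. Levels of different genes are compared below as CPM per kb of summed exon length, written CPM per exon kb. In bulk RNA, fewer cells expressing a gene and less RNA per cell cannot be told apart.

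**Figure D1:**
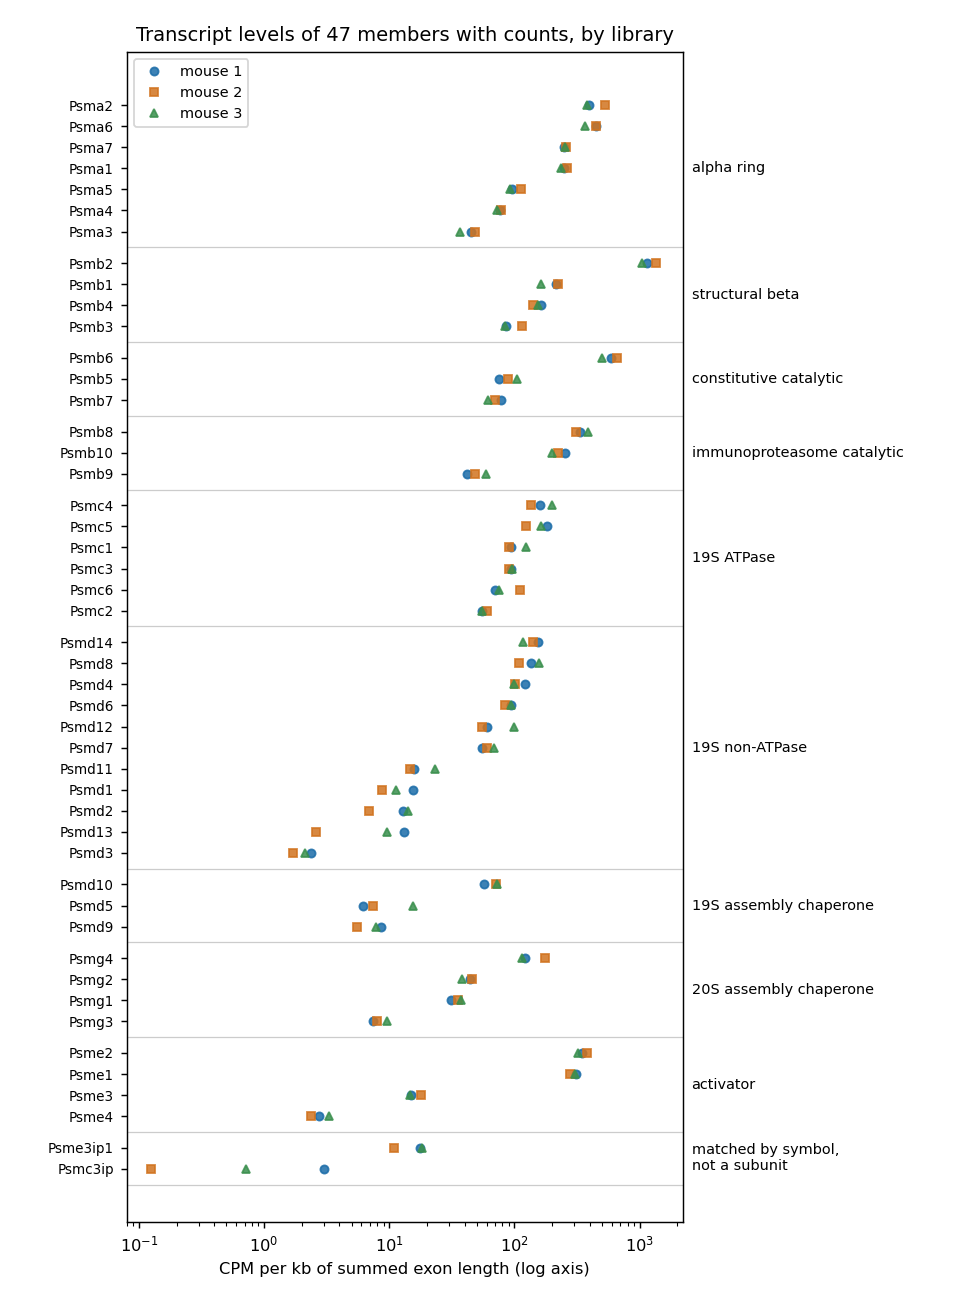
Level of each of the 47 members with any count, in CPM per kb of summed exon length on a log axis. Circles are mouse 1, squares mouse 2 and triangles mouse 3, and rows are grouped by role. Psmb2 has the highest mean of the 47 members and Psmc3ip the lowest.

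The members below detection were 2 subunits of special tissues and a symbol match. Psmb11, the catalytic subunit of the cortical thymus (chromosome 14, 54625310 to 54629556, build GRCm38.p6, which mm10 matches), had 0 counts in each library. Psma8, the alpha subunit known from testis, also had 0 counts in each library. At these depths a count of 0 allows up to 3 counts, or 0.132, 0.171 and 0.115 CPM in mice 1, 2 and 3. These limits cover counting error only. Psmc3ip, named for its binding to Psmc3 and known for a role in meiotic recombination, had 5.43, 0.227 and 1.30 CPM. Only mouse 2 lay below 1 CPM for this gene, and 27.1% of its 50-base runs also occur in the overlapping gene Mlx.

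The catalytic subunits were uneven. Psmb5, the chymotrypsin-like subunit (chromosome 14, 54614120 to 54617995), stood at 67.8, 80.5 and 94.3 CPM in mice 1, 2 and 3. Its interferon-inducible counterpart Psmb8 (chromosome 17, 34198195 to 34201454, in the histocompatibility region) stood at 1124, 1057 and 1300 CPM. Both genes were highest in mouse 3, and per exon kb the libraries of the 2 genes did not overlap. Their coding sequences were identical at 64.9% of 789 aligned bases, and the longest run shared without a mismatch was 18 bases. That run is in capitals in the coding exon stretches below, coding bases 492 to 551 of Psmb8 and 453 to 512 of Psmb5, counted from 1 at the start codon in the GENCODE M21 principal transcripts.
Psmb8: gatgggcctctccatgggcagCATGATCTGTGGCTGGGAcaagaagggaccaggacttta
Psmb5: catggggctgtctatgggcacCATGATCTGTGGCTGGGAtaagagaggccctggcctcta
Per exon kb, Psmb8 was above Psmb5 by 2.13, 1.80 and 1.87 on the log2 scale in mice 1, 2 and 3, a mean of 1.93 ± 0.18 (SD, n = 3) or 3.81-fold. The log2 scale here is log2(CPM + 0.5) less the log2 of the length. Psmb8 was the higher gene in 3 of 3 libraries, with an exact two-sided sign-flip p of 0.25, adjusted 0.25 over the 3 pairs. The smallest p that 3 libraries allow is 0.25, so no pair can pass 0.05.

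Psmb6 and Psmb9 showed the opposite order. Psmb6, the caspase-like subunit (chromosome 11, 70525324 to 70527858), stood at 1105, 1241 and 943 CPM in mice 1, 2 and 3. Psmb9, which replaces it (chromosome 17, 34182030 to 34187330), stood at 154, 177 and 216 CPM. Psmb6 was lowest and Psmb9 highest in mouse 3, and per exon kb the libraries of the 2 genes did not overlap. The coding sequences matched at 65.9% of 657 aligned bases, with a longest shared run of 11 bases, shown in capitals in coding bases 154 to 213 of Psmb9 and 193 to 252 of Psmb6.
Psmb9: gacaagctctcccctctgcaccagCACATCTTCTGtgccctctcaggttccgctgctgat
Psmb6: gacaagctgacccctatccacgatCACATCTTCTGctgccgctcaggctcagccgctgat
Per exon kb, the difference of Psmb9 less Psmb6 was -3.81, -3.77 and -3.09 on the log2 scale, a mean of -3.56 ± 0.40 (SD, n = 3). Psmb9 was thus 11.8-fold lower per exon kb, and lower in 3 of 3 libraries, with an exact two-sided sign-flip p of 0.25, adjusted 0.25.

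Psmb10 was above Psmb7 per exon kb, but both the margin and whether it was above at all rested on how length was measured. Psmb7, the trypsin-like subunit (chromosome 2, 38588046 to 38643952), stood at 268, 239 and 208 CPM. Psmb10, which replaces it (chromosome 8, 105935728 to 105938392), stood at 429, 378 and 340 CPM. Both were highest in mouse 1 and lowest in mouse 3, and per exon kb all 3 values of Psmb10 lay above those of Psmb7. The coding sequences matched at 60.9% of 819 aligned bases, with a longest shared run of 15 bases, shown in capitals in coding bases 96 to 155 of Psmb10 and 108 to 167 of Psmb7.
Psmb10: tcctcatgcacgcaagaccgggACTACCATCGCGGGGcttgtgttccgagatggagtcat
Psmb7: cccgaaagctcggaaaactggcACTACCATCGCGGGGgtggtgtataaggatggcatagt
Per exon kb, Psmb10 was above Psmb7 by 1.68, 1.66 and 1.71 on the log2 scale, a mean of 1.68 ± 0.023 (SD, n = 3) or 3.21-fold, with an exact two-sided sign-flip p of 0.25, adjusted 0.25. This was the pair with the smallest spread between libraries.

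**Figure D2:**
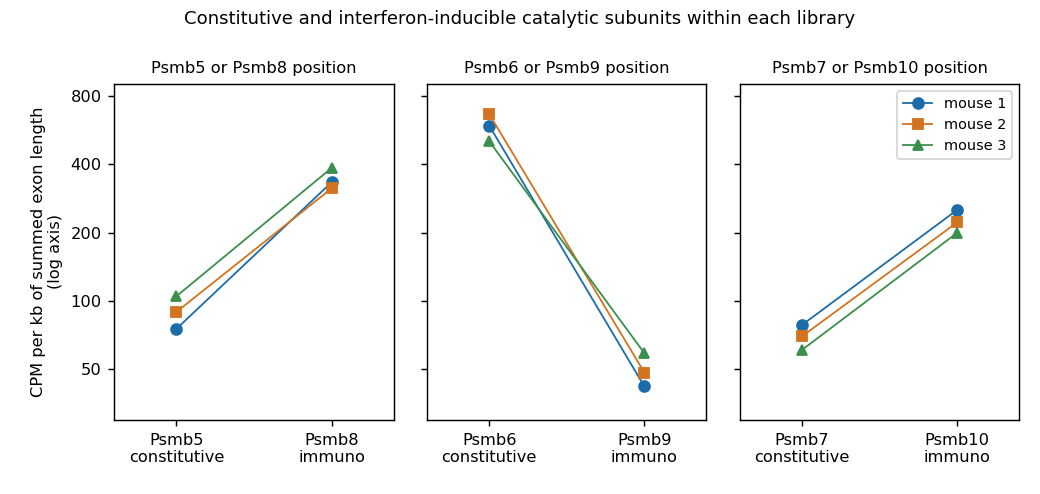
Levels of the 3 pairs of constitutive and interferon-inducible catalytic subunits, in CPM per kb of summed exon length on a log axis, with a line for each library (circle mouse 1, square mouse 2, triangle mouse 3). The lines rise from Psmb5 to Psmb8 and from Psmb7 to Psmb10 and fall from Psmb6 to Psmb9 in all 3 libraries.

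Summed exon length counts every annotated isoform, so other length measures were set beside it. The Psmb8 and Psmb5 difference on the log2 scale was 2.99 with the length of the principal transcript (7.92-fold), 3.78 with coding length (13.7-fold) and 3.84 with no division (14.3-fold). The Psmb9 and Psmb6 difference was -3.35, -2.47 and -2.59 in the same order, or 10.2-fold, 5.54-fold and 6.02-fold lower. Those 2 pairs kept their direction in 3 of 3 libraries under every length measure run. The Psmb10 and Psmb7 difference was 0.50 with the principal transcript, 0.70 with coding length and 0.68 with no division, or 1.42-fold, 1.62-fold and 1.60-fold.

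Some subunit transcripts share sequence with other genes, and whether reads that fit several places were counted is not stated in the labels. Of all 50-base runs in the principal transcript of Psmb5, 57.1% also occur in another annotated gene, chiefly the processed pseudogene Gm3375. The share was 28.1% for Psmb7, which overlaps Nek6 on the other strand, 12.5% for Psmb9, which overlaps Tap1, 5.83% for Psmb8 and 2.67% for Psmb6. Psmb10 shared none. With levels divided by the number of unique 50-base runs, the log2 difference was 1.82 for Psmb8 and Psmb5 and -3.23 for Psmb9 and Psmb6. For Psmb10 and Psmb7 it was 0.016, -0.00073 and 0.045 by library when recomputed this way, a mean of 0.020 ± 0.023 (SD, n = 3) with an exact two-sided sign-flip p of 0.5, adjusted 0.5. The part that shared reads had in the counts was not tested.

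**Figure D3:**
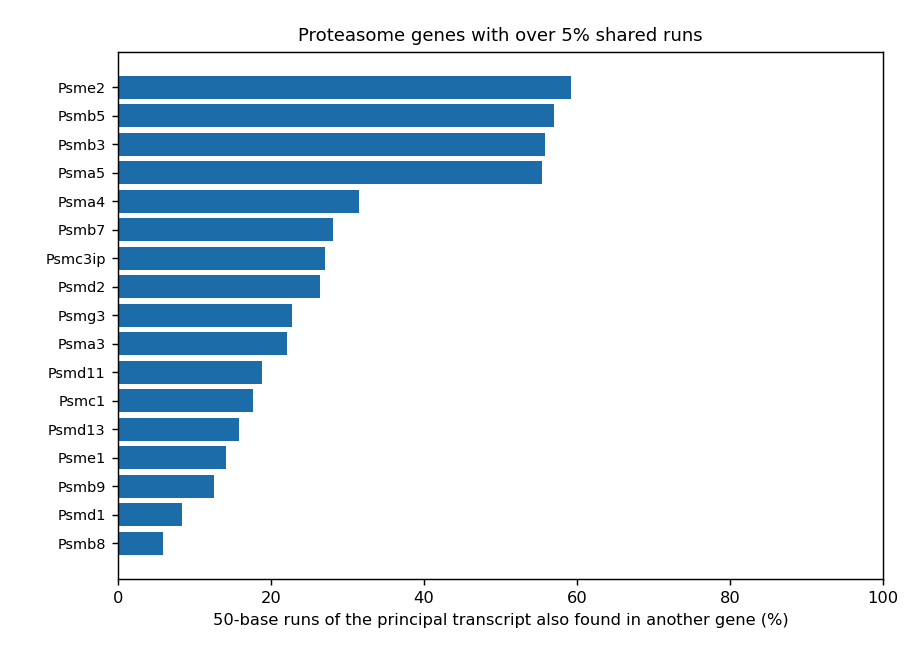
Percent of the 50-base runs of the principal transcript that also occur in another annotated gene, for the proteasome genes with over 5%. Psme2, Psmb5, Psmb3 and Psma5 are the 4 proteasome genes above 50%, of 17 above 5%, while 23 members share no run.

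**Figure D4:**
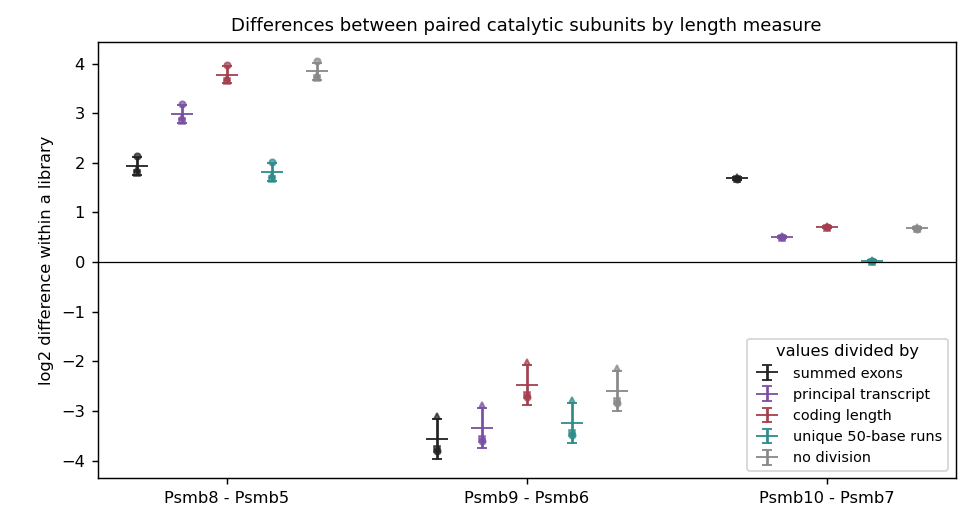
Within-library log2 difference of each interferon-inducible subunit less its constitutive counterpart, by the length measure used (colours). Points are libraries (circle mouse 1, square mouse 2, triangle mouse 3), and bars are the mean ± SD of 3 libraries. Psmb8 less Psmb5 lies above 0 and Psmb9 less Psmb6 below 0 under each measure, while Psmb10 less Psmb7 goes from 1.68 to 0.020.

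As sets of 3, the interferon-inducible and constitutive subunits were at close mean levels per exon kb. The mean log2 difference was 0.0015, -0.10 and 0.16 in mice 1, 2 and 3, or 0.020 ± 0.13 (SD, n = 3), with no one direction. The inducible subunits held 45.7%, 41.5% and 49.0% of the summed catalytic level per exon kb, or 45.4 ± 3.76% (SD, n = 3). Mouse 2 had the lowest share and mouse 3 the highest. These even totals joined unlike members: by mean CPM per exon kb the order was Psmb6 (586 ± 79.7), Psmb8 (343 ± 37.1), Psmb10 (224 ± 26.1), Psmb5 (89.9 ± 14.7), Psmb7 (69.8 ± 8.75) and Psmb9 (49.8 ± 8.50), each SD with n = 3. Of the neighbours in that order, only Psmb5 and Psmb7 overlapped between libraries. The order of the last 3 rested on the length measure. Per kb of principal transcript Psmb7 had 206 CPM, Psmb9 had 135 and Psmb5 was lowest with 89.9. The mean difference turned to -0.47 with unique 50-base runs and was 0.64 with no division, so neither set can be placed above the other.

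The activators split by kind. Psme1 and Psme2, neighbours on chromosome 14 (55578494 to 55581527 and 55587440 to 55591101), encode the partners of the interferon-inducible PA28 ring. Psme1 stood at 686, 614 and 671 CPM, and Psme2 at 609, 664 and 570 CPM in mice 1, 2 and 3. Mouse 2 was lowest for Psme1 and highest for Psme2. Per exon kb the log2 difference of Psme1 less Psme2 was -0.15, -0.44 and -0.089, a mean of -0.23 ± 0.19 (SD, n = 3), so Psme2 was slightly the higher in 3 of 3 libraries. The mean was 0.039 with coding length and -1.20 with unique runs, so their order rested on the length measure. Psme2 shares 59.3% of its 50-base runs with other genes, chiefly its near copy Psme2b.

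The activators that do not belong to the interferon-inducible ring were low. Psme3, the nuclear PA28 gamma ring, stood at 44.2, 52.4 and 42.9 CPM, highest in mouse 2. Psme4, the large PA200 activator, stood at 23.0, 19.8 and 27.8 CPM, lowest in mouse 2. Per exon kb, Psme1 was above Psme3 by 4.23 ± 0.24 on the log2 scale (SD, n = 3; 18.7-fold) and above Psme4 by 6.71 ± 0.19 (SD, n = 3; 105-fold). Psme1 was the higher gene in 3 of 3 libraries in both comparisons, and the libraries did not overlap. Under the other length measures run, the first difference ranged from 3.84 with coding length to 5.33 with unique runs, and the second from 7.33 with the principal transcript to 7.67 with coding length.

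The alpha ring, which gates the barrel, had a median of 249 CPM per exon kb over its 7 detected members. Psma2 had the highest mean, with 397, 529 and 383 CPM per exon kb in mice 1, 2 and 3, followed by Psma6 with 445, 452 and 366. Psma3 was lowest with 44.6, 48.2 and 36.5 CPM per exon kb, below Psma4 with 77.2, 78.0 and 72.4. The lowest library of Psma2 lay far above the highest of Psma3, and within each of these 4 genes mouse 2 was the highest and mouse 3 the lowest. The ratio of the highest to the lowest mean of detected alpha subunits was 10.1. The order at the top rested on the length measure. Per kb of principal transcript Psma7 with 849 CPM and Psma1 with 613 were above Psma2 with 551 and Psma6 with 499. Psma4 and Psma5 share 31.5% and 55.4% of their 50-base runs with other genes.

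The structural beta subunits, which carry no cutting site in the mature core, had a median of 176 CPM per exon kb over 4 members. Psmb2 stood at 1139, 1354 and 1047 CPM per exon kb, the highest of all members in each library. Psmb1 had 215, 221 and 162 CPM per exon kb, Psmb4 had 163, 140 and 153, and Psmb3 had 85.4, 114 and 84.0. Mouse 2 was the highest library for Psmb2, Psmb1 and Psmb3 and the lowest for Psmb4. Psmb2 holds no 50-base run found in another gene, while Psmb3 shares 55.8% with pseudogenes.

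The 6 ATPases of the 19S base, which unfold substrates and feed them into the core, ranged from 57.0 to 164 CPM per exon kb with a median of 97.8. The highest mean was 2.89 times the lowest, against 12.5 times in the structural beta subunits. Psmc4 stood at 160, 135 and 198 CPM per exon kb and Psmc5 at 182, 124 and 164, both lowest in mouse 2. The lowest per exon kb were Psmc6 with 70.4, 110 and 74.8 CPM and Psmc2 with 55.3, 60.5 and 55.1, both highest in mouse 2. Only these 2 of the 6 ATPases were highest in mouse 2. The low place of Psmc2 rested on the length measure. Per kb of principal transcript its mean was 161 CPM, above Psmc3 with 148, Psmc6 with 133 and Psmc1 with 125.

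The 11 non-ATPase subunits of the base and lid covered the widest range of the 19S groups, from 2.07 to 137 CPM per exon kb with a median of 61.2. Psmd14, the deubiquitinase of the lid, stood at 153, 141 and 117 CPM per exon kb. Psmd8, a lid subunit, stood at 135, 108 and 158. At the low end the lid subunits Psmd3 and Psmd13 had 2.36, 1.72 and 2.12 and 13.2, 2.61 and 9.55 CPM per exon kb. Psmd3 was low in every library, with 11.7, 8.53 and 10.5 CPM before division. Psmd13 was also far below the group median of 61.2 in every library, and lowest in mouse 2. The large scaffolds Psmd1 and Psmd2 were also low, at 11.9 ± 3.37 and 11.4 ± 3.88 CPM per exon kb (SD, n = 3). Mean levels per exon kb differed 66.2-fold between Psmd14 and Psmd3.

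The assembly chaperones, which build the particles and then leave them, had lower medians than the subunit groups. The median was 38.8 CPM per exon kb for chaperones of the 20S core and 9.66 for those of the 19S base, with Psmg4 highest at 137 ± 33.9 (SD, n = 3). In mice 1, 2 and 3 Psmg1 stood at 42.1, 47.2 and 50.7 CPM and its partner Psmg2 at 76.7, 80.3 and 66.6 CPM. Psmg3 stood at 21.5, 23.3 and 27.5 CPM and its partner Psmg4 at 67.4, 97.7 and 63.2 CPM. Mouse 2 was highest for Psmg2 and Psmg4, and mouse 3 for Psmg1 and Psmg3, so the partners did not share an order of libraries. Of the base chaperones, Psmd10 had 67.3 ± 8.87 CPM per exon kb, Psmd5 9.66 ± 5.03 and Psmd9 7.34 ± 1.58 (SD, n = 3 for each). Psme3ip1, the other symbol match, stood at 66.8, 41.0 and 68.8 CPM.

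Proteasome genes varied little between the mice. The coefficient of variation (CV, the SD over the 3 libraries as a percent of the mean) had a median of 13.6% over detected members and 28.5% over all detected genes, and 42 of 46 detected members were below the latter. Abundance matters to the CV, and the 1601 detected genes between 77.3 and 385 CPM, the quartiles of the members, had a median CV of 18.1%. Psma7, an alpha ring subunit, had the lowest CV at 1.65%, with 765, 790 and 772 CPM. The ATPase Psmc3 followed at 2.66% (245, 235 and 247 CPM) and Psma4 at 3.98% (183, 185 and 172 CPM). For these 3 genes the libraries were nearly level.

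At the other end, Psmd13 had a CV of 63.6%, with 44.6, 8.82 and 32.3 CPM, low in mouse 2. Psmd5 had a CV of 52.1%, with 44.7, 53.2 and 112 CPM, high in mouse 3. Psmd2 had a CV of 34.2%, with 52.3, 28.0 and 57.4 CPM, low in mouse 2. The spread of each gene was tested against genes of its abundance with edgeR's quasi-likelihood dispersions. With Benjamini-Hochberg adjusted p-values at 0.05, 0 of 46 tested members were called, against 0.185% of all 9175 tested genes. At an unadjusted p below 0.05 in edgeR, 2 members passed (4.35% of those tested), against 4.53% of all tested genes. These were Psmd13 and Psmd5, each with an edgeR adjusted p of 0.975. The log2 ratio of dispersion to trend was 2.27 for Psmd13 and -0.79 without mouse 2, and it was 2.01 for Psmd5 and -2.08 without mouse 3, so each spread rested on 1 library. limma variances and DESeq2 dispersion outliers also called 0 members, against 17 and 24 of all 9175 tested genes. The median log2 ratio to the trend was -1.16 for members and -0.43 for all tested genes.

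The core and the cap moved in different directions between mouse 2 and mouse 3, a pattern singled out after the values were seen. Of the 14 detected standard 20S core subunits, 11 were highest in mouse 2, against 33.7% of all detected genes, and 11 were lowest in mouse 3, against 34.1%. With TMM or DESeq2 scaling 7 of 7 alpha ring subunits were highest in mouse 2, but with library size alone 4 of 7 were, and 7 of the 14 core subunits. Of 17 subunits of the 19S particle, 12 were lowest in mouse 2, against 37.1% of all detected genes, and this count was 12 under all 3 scalings. The median log2 difference of mouse 3 less mouse 2 was -0.30 for the standard core, 0.36 for the 19S particle and 0.019 for all detected genes.

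The core and the cap were also compared within each library, where the scaling of whole libraries hardly matters. The comparison uses the same counts of the same genes in which the pattern was seen, so it is not separate evidence for it. Levels in this comparison were not divided by length. The median log2 CPM of the standard core, less that of the 19S particle, was 0.77, 1.16 and 0.57 in mice 1, 2 and 3. The mean difference was 0.83 ± 0.30 (SD, n = 3). This difference was highest in mouse 2 and lowest in mouse 3, but the place of mouse 2 did not hold for the alpha ring alone. The alpha ring less the 19S ATPases gave 1.14, 1.09 and 0.83 in mice 1, 2 and 3. Less the 19S non-ATPase subunits it gave 2.15, 2.03 and 1.54. Both of these differences were highest in mouse 1 and lowest in mouse 3. Core transcripts are shorter, with a median principal transcript of 1163 bases against 1636 for the 19S particle. Over all detected genes the median log2 difference of mouse 3 less mouse 2 was 0.034 for the shortest of 3 equal classes of principal transcripts, 0.21 for the middle class and -0.10 for the longest. Mitochondrial genes took 2.35%, 3.01% and 1.77% of the counts of mice 1, 2 and 3, highest in mouse 2 like the core. The 7 natural killer markers summed to 8.47, 244 and 55.4 CPM, of which Gzma gave 7.19, 229 and 48.2 CPM (edgeR adjusted p = 0.00375 for its spread between mice), and the 3 erythroid markers summed to 0.0441, 11.9 and 0.652 CPM. Both sums were also highest in mouse 2, and their part and that of the mitochondrial share were not tested. No subunit in either particle passed the variability test.

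**Figure D5:**
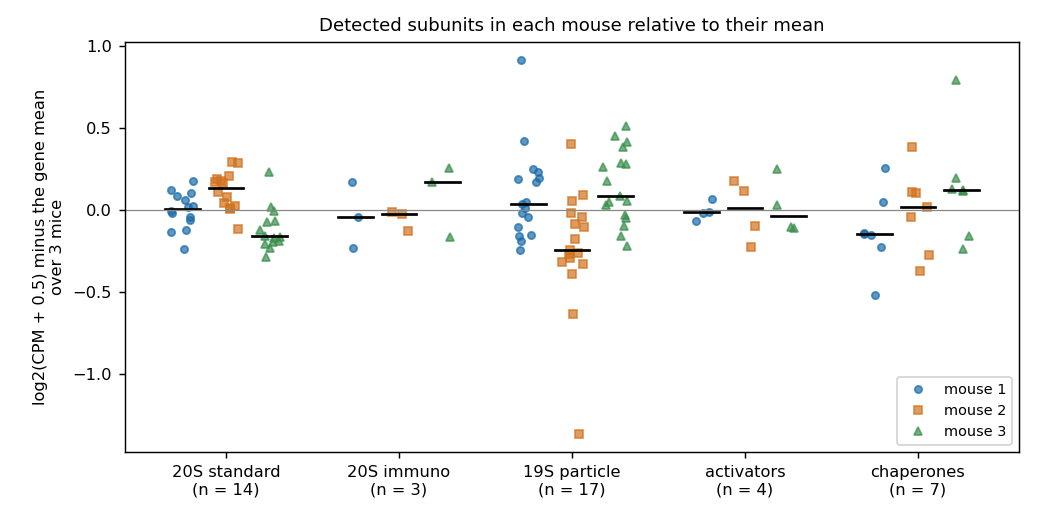
Log2(CPM + 0.5) of each detected subunit in each mouse less its mean over 3 mice, by particle (circles mouse 1, squares mouse 2, triangles mouse 3; black bars are medians, with the number of genes below each group). Squares lie above 0 for most standard 20S subunits and below 0 for most 19S subunits with TMM scaling, while with library size alone 7 of 14 core subunits are highest in mouse 2.

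Short windows before the gene starts were searched for 3 motifs tied to proteasome control. RefSeq promoter windows of GRCm38.p6 matched 41 of 49 members by gene ID, and the 250 bases before the start were read on both strands. The core of the antioxidant response element bound by NRF1 and NRF2, TGACNNNGC, was in 5 of 41 members (12.2%) and in 11.5% of all 27025 genes in the table. Those 5 were Psmb5, Psmb6, Psmc6, Psmd12 and Psmd9. Psmb5 and Psmb6 are constitutive catalytic subunits, and the third, Psmb7, had no window in the table. The bases next to the start are shown for both with the match in capitals, at chr14:54617996-54618115, minus strand, for Psmb5 and chr11:70525327-70525356, plus strand, for Psmb6.
Psmb5: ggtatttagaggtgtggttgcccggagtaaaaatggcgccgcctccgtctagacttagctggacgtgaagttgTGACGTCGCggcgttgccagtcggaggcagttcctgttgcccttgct
Psmb6: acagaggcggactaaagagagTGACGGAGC
Counted from the start that the promoter table uses, the first base of the match is at -47 in Psmb5 and -9 in Psmb6. For Psmb6 that start is position 70525357, while the gene table begins the gene at 70525324, so by the gene table the match lies inside the gene. The interferon-stimulated response element core, a pair of GAAA with 2 bases between, was in 3 of 41 members (7.32%; Psmb3, Psmd4 and Psmd9) and in 3.46% of all genes. The gamma-activated site core TTCNNNGAA was in 2 of 41 members (4.88%; Psmb8 and Psmg1) and in 8.13% of all genes. All 250 bases of the Psmb8 and Psmb9 windows, and 52 of those of Psmb10, lie in exons of other GENCODE transcripts of the same genes, so these windows are not wholly upstream of the gene. A match describes the letters in the window only.

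Genes around the proteasome were followed in 5 lists of 58 genes. No gene of these lists passed the variability test in edgeR with adjusted p-values (0 of 55 tested, against 0.185% of all tested genes). At an unadjusted p below 0.05 in edgeR, 7 of the 55 passed, against 4.53% of all tested genes. With limma and DESeq2, 0 genes of these lists were called, against 17 and 24 of all 9175 tested genes. CPM of these lists are not divided by length, so they are not compared between genes. Of the other proteasome parts and partners, 17 of 17 were detected. Sem1, a small lid subunit, had 946 ± 184 CPM (SD, n = 3) and Pomp, which matures the core, had 766 ± 64.6 CPM, while the ubiquitin shuttles Ubqln2 and Ubqln4 had 6.49 ± 1.73 and 5.26 ± 4.20 CPM.

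Of 10 genes of the NRF1 route that raises proteasome transcription, 7 were detected. Nfe2l2, which encodes NRF2, had 159 ± 50.3 CPM (SD, n = 3), and Ngly1, which removes sugars from NRF1, had 92.9 ± 9.03 CPM. Nfe2l1, which encodes NRF1 itself and was singled out after its values were seen, had 0.794, 1.99 and 5.45 CPM and missed detection in mouse 1. Ddi2, the protease that activates NRF1, had 0 counts in mice 1 and 2 and 1.23 CPM in mouse 3. Keap1, the adaptor that marks NRF2 for breakdown, had 0.980 ± 0.846 CPM.

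Uba1, the main ubiquitin-activating enzyme and the gene with the highest mean CPM of the ubiquitin list, had 40.4 ± 8.59 CPM (SD, n = 3).

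In class I antigen processing, which uses peptides cut by the proteasome, 11 of 11 genes were detected. B2m, the invariant chain, had 24827 ± 4363 CPM (SD, n = 3) and the heavy chain gene H2-K1 had 3323 ± 627 CPM. The peptide transporter genes Tap1 and Tap2, which lie beside Psmb9 and Psmb8, had 18.6 ± 2.05 and 10.1 ± 2.86 CPM. Per exon kb, Tap1 stood at 3.39 CPM and Psmb9 at 49.8 CPM. Of 14 genes through which interferon and NF-kB act on the inducible subunits, 13 were detected. Ifngr1, a chain of the interferon gamma receptor, had 1513 ± 424 CPM and the NF-kB gene Nfkb1 had 519 ± 105 CPM. Ifng itself had 2.65, 4.09 and 7.56 CPM, and Irf8, an interferon-regulated factor, had 1.29 ± 0.799 CPM.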

How the data were processed

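The authors deposited 1 table of raw read counts per Entrez gene ID for the 3 libraries. Per the labels' protocols, the kit was the Clontech SMARTer Ultra Low Input kit, which does not mark strand. CASAVA 1.8.2, STAR 2.3.0 and the mm10 build are named in the submitters' processing notes; the counting program is not given in the sources used here. IDs were matched to RefSeq GRCm38.p6 (25275 of 27179). Counts were scaled by TMM in edgeR 4.0.16 (R 4.3.3) and divided by GENCODE M21 exon length, with 0.5 CPM added before logs. Between-mouse spread was tested in edgeR (intercept-only fit, filterByExpr minimum 10, upper-tail F test) and with limma 3.58.1 and DESeq2 1.42.0, and was checked on simulated data. Pairs were tested by exact sign flips. The members and lists were chosen with earlier results of these data known. Named were the catalytic, activator and 20S chaperone genes, the 2 highest and 2 lowest per kb of each other ring or cap group and by CPM of each related list, and the 3 highest and 3 lowest CVs. Psmd1, Psmd5, Psmd9, Psmd10 and the promoter matches were named besides. Some results on the ubiquitin list are not reported here.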

Additional observations from a re-analysis of the deposited data

How the results depend on the processing

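The log2 difference of the inducible less the constitutive catalytic subunits, 0.020, was 0.64 with no division by length, 0.67 with coding length and -0.47 with unique 50-base runs, and -0.051 to 0.081 when leaving out each library (-0.051 without mouse 3). The inducible share, 45.4%, was 55.0% with no division, 40.7% with the principal transcript, 52.8% with coding length, 38.1% with unique runs, and 43.6% to 47.3% when leaving out each library. Leave-one-out means per exon kb were 1.83 to 2.00 for Psmb8 less Psmb5, -3.79 to -3.43 for Psmb9 less Psmb6 and 1.67 to 1.69 for Psmb10 less Psmb7. With unique runs the mean for Psmb10 less Psmb7 was 0.020. Other size factors moved none of these 5 results past their spread, but they hardly could, because the scaling of a library nearly cancels within it. Other pseudocounts moved none of the 4 differences on the log2 scale past their spread, and the share uses no pseudocount. Detected members numbered 45 to 47 and their median CV was 9.42% to 14.7% over the settings run. The principal transcript, GENCODE coding length, unique runs and leaving out Psmc3ip and Psme3ip1 were chosen after seeing the data; coding length from RefSeq proteins was not run. No member passed the variability test in any of 10 other settings, but few genes of any kind passed in them. With a robust prior 0 of 9175 tested genes were called, and the largest number was 31 of 9841, without mouse 1. These counts therefore say little about the members. No paired analysis was possible because only 1 group of libraries exists. With 3 libraries the number of mice limits every comparison.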

Other observations

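Of the 55 tested genes around the proteasome, 7 passed an unadjusted p below 0.05 for spread between mice in edgeR, against 4.53% of all tested genes, and were singled out for that. Without mouse 2 the count was 2 of 56, and without mouse 3 it was 5 of 55. Irf9, a subunit of the interferon-activated factor ISGF3, had 38.5, 34.6 and 122 CPM in mice 1, 2 and 3 (edgeR adjusted p = 0.935). Socs1, an inhibitor of interferon signalling, had 13.5, 6.09 and 46.2 CPM (edgeR adjusted p = 0.975), and Ifngr2, a receptor chain for interferon gamma, had 116, 75.9 and 205 CPM (edgeR adjusted p = 0.975). Within class I antigen processing, the heavy chain gene H2-D1 had 1656, 882 and 2477 CPM, and the peptide-loading chaperones Pdia3 and Calr had 852, 344 and 966 CPM and 289, 132 and 314 CPM. All 6 genes were highest in mouse 3 and lowest in mouse 2, and none of the 6 passed the adjusted threshold. Other genes of these lists went the other way. B2m had 26290, 28271 and 19920 CPM and Canx had 321, 486 and 315 CPM, both highest in mouse 2 and lowest in mouse 3. Mouse 3 also had the largest immunoglobulin share of counts, 7.81%, and its part was not tested. The ubiquitin ligase Ube3a, the other of the 7, had 10.9, 43.8 and 9.93 CPM. Akirin2, which carries proteasomes into the nucleus, was level at 13.9, 13.5 and 13.7 CPM.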
